A study of Drosophila melanogaster with 2 samples.

Results

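The fat body, the insect counterpart of liver and adipose tissue, fills the hemolymph with storage proteins and lipoproteins. Described here are 10 genes for such proteins or grouped with them. Of these, 6 are grouped as storage-protein genes (Lsp1alpha, Lsp1beta, Lsp1gamma, Lsp2, Fbp1 and Fbp2) and 3 as lipoprotein genes (apolpp, Mtp and Apoltp), and Tsf1 encodes an iron carrier. The group names are broad, and Fbp1, Fbp2 and Mtp encode the receptor, enzyme-related and transfer proteins described below. The 10 genes were chosen by name from 13945 protein-coding genes on the 6 chromosome arms. Binding of the nuclear receptor Hr39 to the genome was mapped by ChIP-seq, the sequencing of DNA that is immunoprecipitated with a protein, in whole *Drosophila melanogaster* white prepupae, which are at the onset of metamorphosis. The flies were of 1 transgenic strain, labelled Hr39-RC-GFP, whose Hr39 carries GFP at its C terminus, and the precipitation used an antibody against GFP. Males and females were pooled, the age in hours is unknown, and the labels do not name the promoter that drives the fusion. There was 1 group, with biological replicates 1 and 3. Each region was given to a gene when its summit, the point of highest signal, lay in the gene or within 5 kb of either end. By this rule 14 of the 7426 optimal regions on the arms belonged to the 10 genes. Optimal regions passed the authors' threshold on the irreproducible discovery rate, a measure of how well ranks match between replicates. Candidate regions are the longer lists behind them, which also hold background. The optimal set is the top, by signal, of the pooled list, which was made from both replicates. An optimal region therefore need not have a candidate in each replicate. On the arms, 4.94% had no replicate 1 candidate within 100 bp, and 1.6% had no replicate 3 candidate. Regions are ranked by the authors' signal within a list, with rank 1 the highest. All coordinates are on dm6.

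Storage proteins and lipoproteins have separate tasks. The larval serum proteins, built from the Lsp1 subunits and from Lsp2, are secreted by the larval fat body late in growth and are taken back into it at the onset of metamorphosis as a store of amino acids. Fbp1 encodes the receptor for that uptake, and Fbp2 a fat body protein related in sequence to alcohol dehydrogenase. The apolpp product is the apolipophorin scaffold of lipophorin, the main lipid carrier of the hemolymph. Mtp encodes the microsomal triglyceride transfer protein, which loads lipid onto such scaffolds, and Apoltp the scaffold of the lipid transfer particle, which moves lipid between tissues and lipophorin. NR5 receptors bind DNA at the nuclear receptor half-site AGGTCA with further bases on its 5′ side.

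The genes lie on 4 chromosomes. Chromosome arm 2L carries Lsp1beta (FBgn0002563) at 898500 to 901316 (plus strand), Fbp2 (FBgn0000640) at 9426784 to 9427917 (plus strand), Mtp (FBgn0266369) at 20919094 to 20922876 (minus strand) and Apoltp (FBgn0032136) at 9634179 to 9656026 (plus strand). Arm 3L carries Lsp1gamma (FBgn0002564) at 66430 to 68995 (plus strand), Lsp2 (FBgn0002565) at 12129393 to 12131869 (plus strand) and Fbp1 (FBgn0000639) at 14094589 to 14098053 (minus strand). The X carries Lsp1alpha (FBgn0002562) at 12490291 to 12492982 (plus strand) and Tsf1 (FBgn0022355) at 18387084 to 18390344 (plus strand). Chromosome 4 carries apolpp (FBgn0087002) at 1060969 to 1077273 (plus strand). The storage genes are therefore spread over 3 chromosomes and are not neighbours of each other.

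The chromatin came from whole animals, so the tissue in which a region was occupied is unknown, and a region found in few cells cannot be told apart from one that is weak in many. A mock precipitation, from flies that lack GFP, was not analysed here. With 1 group there is no second condition to test against, genes are not replicates, and the values below are descriptions with no p-value. Peak lists hold no read counts, so depth is unknown.

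Storage genes had their optimal summits in the flanks, and each lipoprotein gene had at least 1 near its own start site. An optimal summit lay in the gene or its 5 kb flanks at 5 of 6 storage genes and at 3 of 3 lipoprotein genes. Over all protein-coding genes the share was 53.3%. It was 50.5% over the 5946 genes with lengths between those of the shortest and longest storage gene (1134 to 3465 bp), and 65.4% over the 3468 genes in the range of the lipoprotein genes (3783 to 21848 bp). The number of summits was 7 in the storage windows and 7 in the lipoprotein windows. Per 10 kb of window this came to 0.931 for storage genes, 0.973 for lipoprotein genes and 0.681 over the windows of all protein-coding genes. The summed densities of both groups were close, and the positions of the summits differed. Single genes weighed on these sums. Mtp had 4 of the 7 lipoprotein summits in a window of 13.8 kb, against 1 in 26.3 kb at apolpp and 2 in 31.8 kb at Apoltp. Lsp2 had 3 of the 7 storage summits in 12.5 kb.

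Inside gene bodies there was no optimal summit at any of the 6 storage genes, while apolpp and Mtp had 1 each. Gene bodies held an optimal summit at 14.5% of all genes, at 5.73% of genes of storage-gene length and at 29.2% of genes of lipoprotein-gene length, so 0 of 6 is close to what genes of that length show. Within 1000 bp of a transcription start site (TSS) of their own, 0 of 6 storage genes and 3 of 3 lipoprotein genes had an optimal summit. The share was 25.2% of all genes. It was not matched to gene length or to the number of start sites. Of these, apolpp and the storage gene Fbp2 have 3 each and Lsp1beta has 2. The other storage and lipoprotein genes have 1 each. The nearest summit to an own TSS was 2741 bp away among storage genes and 44 bp away among lipoprotein genes. At 1 of 6 storage genes and 3 of 3 lipoprotein genes the gene's own TSS was the nearest protein-coding TSS to some optimal summit, as it was at 27.6% of all genes. Tsf1 had none of these.

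**Figure D1:**
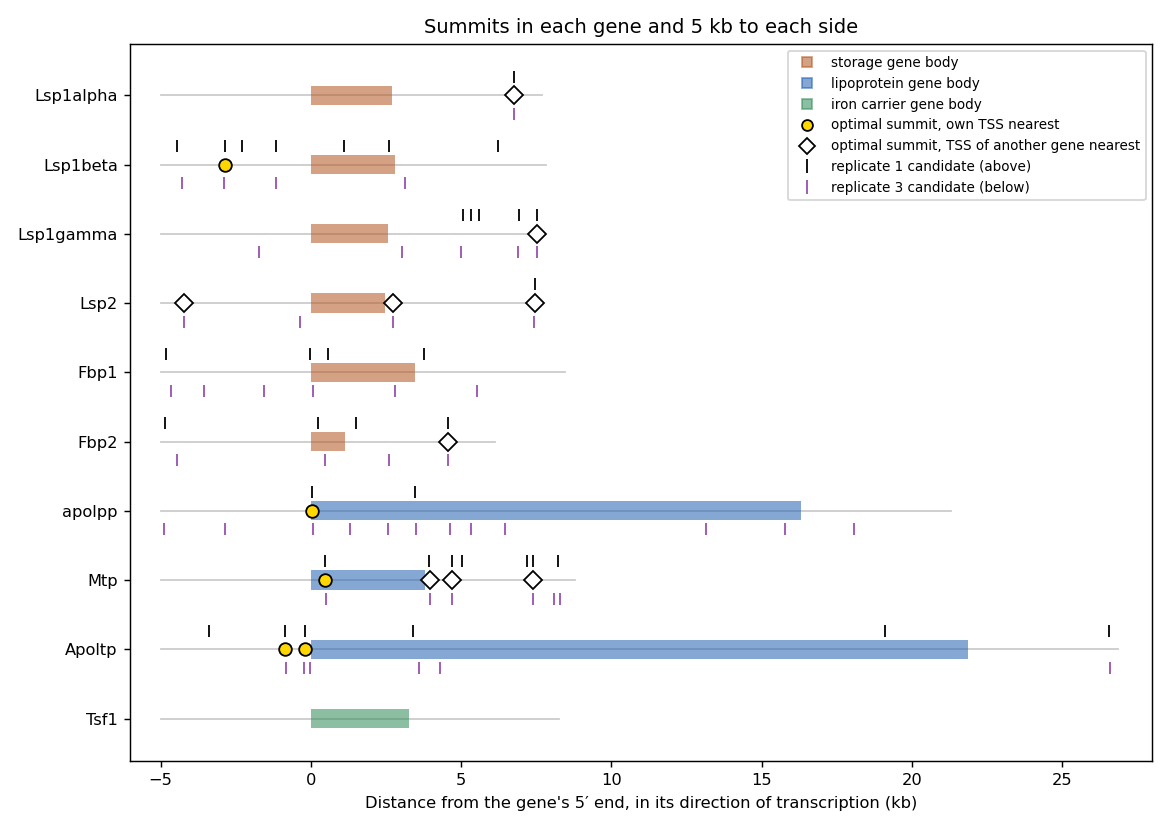
Positions of summits along each gene and 5 kb to each side, in kb from the gene's 5′ end in the direction of transcription; bars are gene bodies, large symbols optimal summits, and small ticks the candidates of replicate 1 (above) and replicate 3 (below). The 7 summits of storage genes lie outside the gene bodies, apolpp and Mtp have 1 each inside, and Tsf1 has no symbol of any kind.

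**Figure D2:**
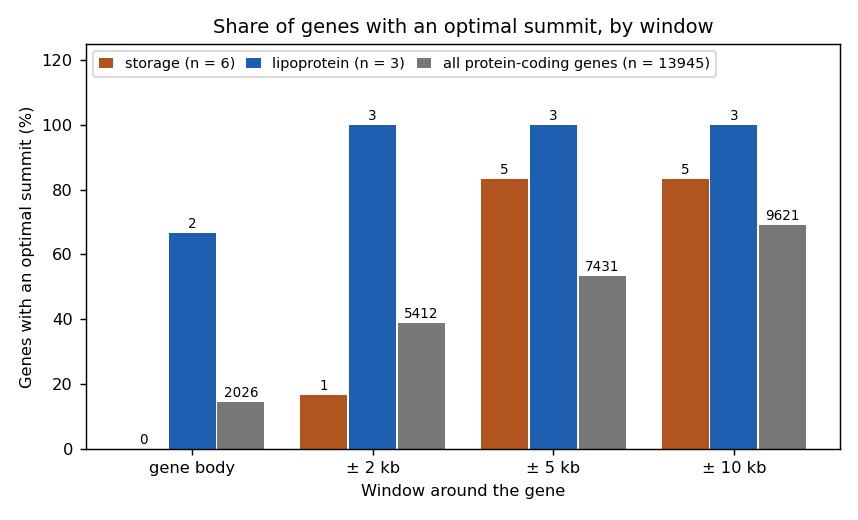
Share of genes (%) with an optimal summit in the gene body and in windows with 2, 5 and 10 kb to each side, for the 6 storage genes, the 3 lipoprotein genes and all 13945 protein-coding genes; the number above each bar is the count of genes. Of the storage genes 0 have one in the gene body, 1 at 2 kb and 5 at 5 kb, and lipoprotein genes are at 3 from 2 kb on.

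Lsp1beta was the storage gene whose optimal summit had no other protein-coding gene nearer. The region (2L, 895442 to 895837) had its summit 2860 bp upstream, in intergenic sequence, at rank 5887 of 7444. It ranked 6767 in replicate 1 and 5718 in replicate 3, with summits 19 and 41 bp away, so both replicates placed it in the lower part of the optimal range. The Lsp1beta window holds no other protein-coding gene. A second pair of candidates, 1161 bp upstream, ranked 8400 in replicate 1 and 26169 in replicate 3 and did not reach the optimal set (rank 11114 in the pooled list). Over the U1 small nuclear RNA gene snRNA:U1:21D, replicate 3 had a candidate 312 bp past the 3′ end at rank 6916. The pooled list had one there at rank 9553, and replicate 1 had none within 100 bp of either.

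At Lsp2 the candidate lists of the replicates differed. The gene had 3 optimal summits, the most of any storage gene, at ranks 1910, 2871 and 5480. The strongest, 4210 bp upstream, lay 33 bp from the TSS of yps, which encodes a Y-box RNA-binding protein. It ranked 1459 in replicate 3, and the nearest candidate of replicate 1 was 9901 bp away. The next, 265 bp past the 3′ end of Lsp2 and 12 bp from the TSS of DEF8, ranked 2711 in replicate 3, with the nearest candidate of replicate 1 at 4714 bp. Only the third, 4977 bp past the 3′ end and 121 bp from the TSS of Atg12 (a ubiquitin-like protein of autophagy), was in both, at rank 5721 in replicate 1 and 5386 in replicate 3. Of the 1899 optimal regions on the arms ranked at or above 1910, 29 (1.53%) had no replicate 1 candidate within 100 bp, and of the 2858 ranked at or above 2871, 77 (2.69%) had none. Why replicate 1 lacked these regions was not tested. At the Lsp2 promoter itself, replicate 3 had a candidate 374 bp upstream at rank 18378, and replicate 1 had none.

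The summits of Lsp1gamma, Fbp2 and Lsp1alpha lay nearer to the start sites of neighbouring genes. Lsp1gamma had the highest-ranked summit of the group (rank 1386, with 1696 in replicate 1 and 1151 in replicate 3). It lay 4971 bp past the 3′ end, just inside the window, in the 3′ UTR of CG13405 and 1304 bp from that gene's TSS. Fbp2 had a summit 3445 bp past its 3′ end and 43 bp from the TSS of scat, which encodes a subunit of a vesicle tethering complex (rank 1926, with 1842 in replicate 1 and 2281 in replicate 3). Lsp1alpha had 1 summit, 4063 bp past its 3′ end and 143 bp from the TSS of mdu, at rank 4434 (replicate 1 had 4414 and replicate 3 had 4779). Both replicates held each of these 3 summits. In all, 5 of 7 storage summits lay within 1000 bp of the TSS of another protein-coding gene that was their nearest, against 2 of 7 lipoprotein summits. Within 1000 bp of any protein-coding TSS, a gene's own included, lay 43.1% of all optimal summits. That wider measure also takes in the lipoprotein summits at 44, 184, 470 and 842 bp from an own TSS. It adds no storage summit.

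Fbp1, the uptake receptor gene and the longest of the group, had no optimal summit, although it had 4 candidates in replicate 1 and 6 in replicate 3. None of them lay within 100 bp of one in the other replicate. The best at the Fbp1 start site was 77 bp inside the gene in its 5′ UTR, at rank 10374 in replicate 3 and 13676 in the pooled list (63 bp inside). In replicate 1 the nearest to the start site was 41 bp upstream, at rank 28307. These ranks are below the last optimal rank of 7444. No other protein-coding gene overlaps the Fbp1 window. At Fbp2, a candidate in the coding sequence 229 bp inside the gene ranked 15869 in replicate 1, and replicate 3 had one 479 bp inside, in an intron, at rank 23722.

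Of the storage genes, Lsp1alpha and Lsp1gamma had no candidate of any list within 1000 bp of their start sites. A pooled candidate lay within that distance at 43.5% of all genes. The Lsp1 genes are related in sequence, so reads could match more than 1 of them. Of the 31-base words of the windows, 97.2% (Lsp1alpha), 98.4% (Lsp1beta) and 99.6% (Lsp1gamma) occurred once in the reference genome. In the gene bodies alone the shares were 97.9%, 97.9% and 99.9%. Whether such matches affected the candidate lists was not tested.

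The sequences at 2 storage summits are shown. Lsp1beta is the storage gene with its own TSS nearest, and the Lsp2 region was in the replicate 3 list without a replicate 1 candidate. Each is the plus strand of dm6, 300 bases centred on the summit. Capitals mark matches, on either strand, to 5 motifs. These were the half-site named above, the longer NR5 core CAAGGTCA that contains it, a GATA factor site (as bound by Serpent in the fat body), the DNA replication-related element (DRE) and an A/T run.
Lsp1beta, chr2L:895490-895789: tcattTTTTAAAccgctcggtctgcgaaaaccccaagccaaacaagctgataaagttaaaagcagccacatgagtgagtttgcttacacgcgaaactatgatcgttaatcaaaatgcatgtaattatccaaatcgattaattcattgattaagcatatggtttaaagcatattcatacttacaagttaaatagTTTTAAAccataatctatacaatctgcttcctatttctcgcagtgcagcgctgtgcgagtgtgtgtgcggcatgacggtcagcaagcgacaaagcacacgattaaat
Lsp2, chr3L:12125033-12125332: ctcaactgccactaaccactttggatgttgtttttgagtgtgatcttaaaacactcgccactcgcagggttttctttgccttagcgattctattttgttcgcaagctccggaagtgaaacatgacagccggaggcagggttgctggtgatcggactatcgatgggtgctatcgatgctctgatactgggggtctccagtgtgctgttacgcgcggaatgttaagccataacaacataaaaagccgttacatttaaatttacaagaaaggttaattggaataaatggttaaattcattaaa
The Lsp1beta window held 2 A/T runs and none of the other sets, at 38.3% G and C. The Lsp2 window held no match to any of the 5, at 43.0% G and C. None of the 7 storage windows had a half-site, 1 had a GATA site (Lsp1alpha), 3 had an A/T run, and 1, at Atg12 beside Lsp2, had a DRE. A window without these letters says nothing on whether the factor was present.

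Mtp had the strongest summit of the 10 genes and the most summits. The top region (2L, 20922209 to 20922525) had its summit 470 bp inside Mtp, in an intron, with a signal of 567 and rank 876 in the optimal set. It ranked 1055 in replicate 1 and 752 in replicate 3, and the summits lay 1 and 31 bp from the optimal one, so the replicates placed it alike. Of all protein-coding genes, 13.7% had a higher-ranked summit in their window. Its 4 optimal summits in the window compare with 7.28% of protein-coding genes that had 4 or more. The other 3 lay past the 3′ end, at the start of sky, which encodes a Rab GTPase-activating protein known from synapses, and of CG43739, which shares that start. They were 16 bp (rank 7011), 706 bp (rank 1882) and 1975 bp (rank 5589) from the nearest TSS. The rank 1882 region was at 2426 in replicate 1 and 1569 in replicate 3. The one at rank 7011 was at 8326 in replicate 1 and 6413 in replicate 3, and the one at rank 5589 was at 4689 in replicate 1 and 7279 in replicate 3.

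At apolpp, on chromosome 4, the summit was at the start site and weak. It lay 44 bp inside the gene, in its 5′ UTR, which is also within an intron of Zyx, the gene for the focal adhesion protein zyxin (region 1060815 to 1061210). Its signal was 104 and its rank 7140, close to the lowest signal of the optimal set (98.5). The ranks were 6452 in replicate 1 and 7432 in replicate 3, so both were weak. An intronic candidate 3475 bp inside the gene came just under the optimal set, at rank 8670 in the pooled list, 11334 in replicate 1 and 8294 in replicate 3. The replicates otherwise differed in number: 2 candidates in replicate 1 and 12 in replicate 3 fell in the apolpp window. The apolpp gene is 16305 bp long, against a median of 2166 bp over all protein-coding genes, so its window is longer than most. In the windows of all these genes the median was 2 candidates in replicate 1 and 3 in replicate 3.

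Apoltp had a pair of optimal summits upstream of its single start site, 184 bp away (rank 5909; 2L, 9633916 to 9634025) and 842 bp away (rank 6179; 9633139 to 9633534). The nearer ranked 6673 in replicate 1 and 5157 in replicate 3, and the farther 6599 in replicate 1 and 6882 in replicate 3. The farther summit thus ranked higher in replicate 1 and the nearer one in replicate 3. Nothing in the 21848 bp of the Apoltp gene itself reached the optimal set. A candidate 4735 bp past the 3′ end ranked 7150 in replicate 1, 9270 in replicate 3 and 8000 in the pooled list, where it was the best-ranked of the members' summits outside the optimal set.

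The sequences at the start-site summits of the 3 lipoprotein genes are shown because no storage gene had an optimal summit this close to its own start. They are 300 bases of the plus strand centred on the summit, with capitals as above. Mtp is transcribed from the minus strand, so its start lies to the right.
Mtp, chr2L:20922256-20922555: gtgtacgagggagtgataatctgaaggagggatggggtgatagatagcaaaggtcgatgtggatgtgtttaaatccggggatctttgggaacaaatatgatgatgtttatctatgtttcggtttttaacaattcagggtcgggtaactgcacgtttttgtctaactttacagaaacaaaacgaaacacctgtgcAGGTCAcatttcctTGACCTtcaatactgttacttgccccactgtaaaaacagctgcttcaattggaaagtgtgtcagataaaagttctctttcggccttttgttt
apolpp, chr4:1060863-1061162: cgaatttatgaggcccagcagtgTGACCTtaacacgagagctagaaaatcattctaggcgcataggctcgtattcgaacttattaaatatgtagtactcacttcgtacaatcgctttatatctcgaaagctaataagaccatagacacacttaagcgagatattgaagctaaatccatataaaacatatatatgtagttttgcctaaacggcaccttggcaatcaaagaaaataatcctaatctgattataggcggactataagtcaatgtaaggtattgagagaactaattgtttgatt
Apoltp, chr2L:9633845-9634144: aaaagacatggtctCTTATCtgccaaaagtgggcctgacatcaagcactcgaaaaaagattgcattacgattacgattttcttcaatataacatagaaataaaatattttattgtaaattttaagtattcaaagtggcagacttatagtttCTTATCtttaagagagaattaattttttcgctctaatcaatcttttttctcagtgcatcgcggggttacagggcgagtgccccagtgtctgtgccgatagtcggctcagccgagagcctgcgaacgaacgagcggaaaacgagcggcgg
Mtp held 2 half-sites in opposite orientation, 1 on each strand, with 8 bases between them and beginning 44 and 58 bp from the summit on the side of the start site. Neither is extended to CAAGGTCA. A window with 2 or more half-sites was found at 15 of 7426 optimal summits (0.202%), and at 0.477% of all 300-base windows laid end to end along the arms. The apolpp window had 1 half-site, and the Apoltp window had 2 GATA sites and no half-site. Half-sites were thus in 0 of 7 storage and 2 of 7 lipoprotein windows, against 6.14% of all optimal windows and 8.06% of the windows along the arms.

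The NR5 core CAAGGTCA was in none of the 14 windows. It was rare throughout, in 0.727% of all optimal windows and 0.753% of the windows along the arms. The GATA site was searched as GATAAG. It was in 1 of 7 storage windows and 3 of 7 lipoprotein windows, beside 14.7% of optimal windows and 12.1% of the windows along the arms. Those 3 were both Apoltp summits and the Mtp summit at rank 7011, which lies 16 bp from the start of sky. The A/T run, TTTAAAA, was in 3 storage windows and 1 lipoprotein window, beside 29.3% of optimal windows and 16.1% of those along the arms. That lipoprotein window was again the one at the start of sky. The DRE, TATCGATA, was in 1 of the 14, beside 3.45% of optimal windows and 0.848% of those along the arms. Content of G and C averaged 36.8% in the storage windows (26.0% to 43.0%) and 39.6% in the lipoprotein windows (34.3% to 47.0%), beside 37.3% over all optimal windows and 42.2% along the arms.

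The members' optimal summits ranked between 876 (Mtp) and 7140 (apolpp) of 7444. The best rank had a median of 1926 over the 5 storage genes with a summit, 5909 over the 3 lipoprotein genes and 2086 over the 7431 protein-coding genes with one. The 3 best-ranked storage summits lay nearer to the start sites of CG13405, yps and scat than to those of the storage genes. Both replicates had a candidate within 100 bp of 12 of the 14 summits (5 of 7 storage, 7 of 7 lipoprotein), as at 93.6% of all optimal regions on the arms. The exceptions were the pair at Lsp2 described above.

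**Figure D3:**
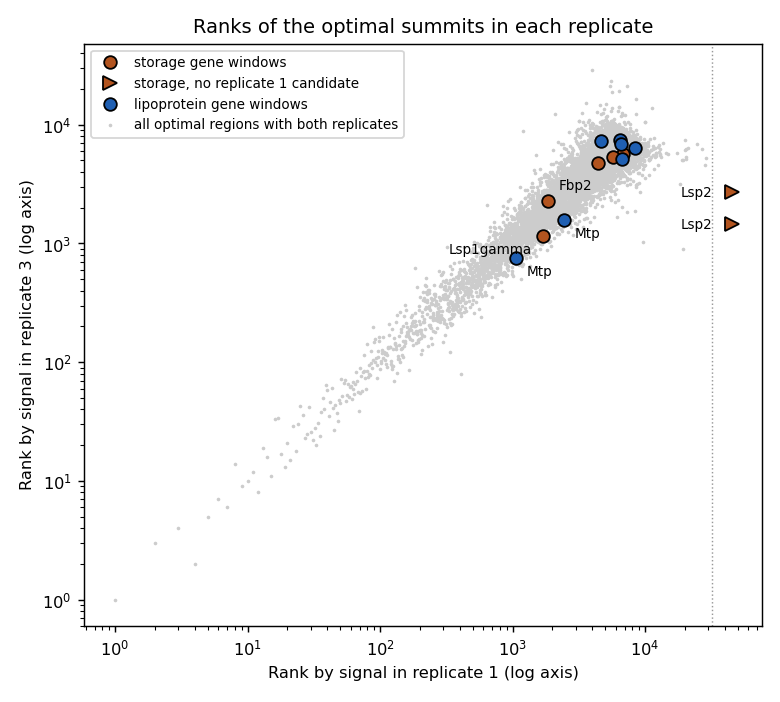
Rank by signal in replicate 1 (x, log axis) and replicate 3 (y, log axis) of each optimal summit of storage genes and lipoprotein genes, over all optimal regions with both replicates in grey; triangles right of the dotted line have no replicate 1 candidate within 100 bp. The 7 lipoprotein and 5 of the 7 storage summits lie within the grey cloud, and the triangles are the Lsp2 summits at ranks 1459 and 2711 of replicate 3.

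**Figure D4:**
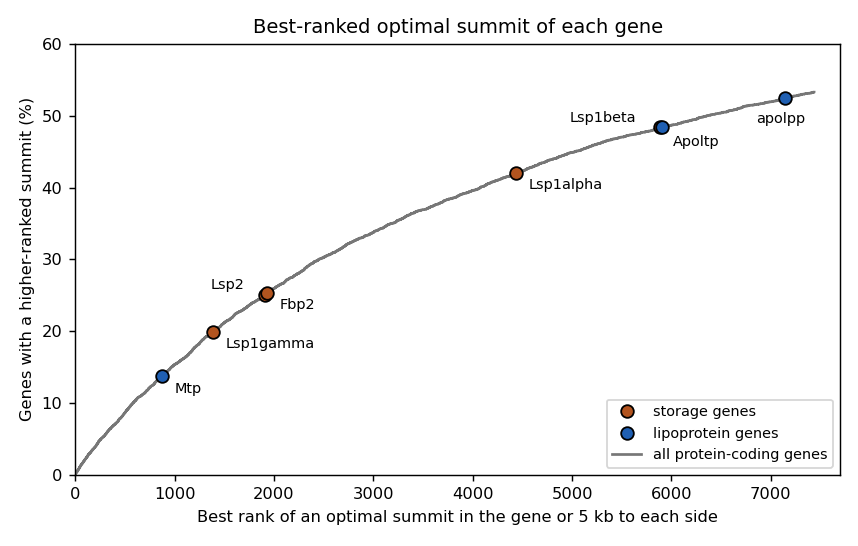
Best rank of an optimal summit in the gene or 5 kb to each side (x) and the percentage of all protein-coding genes with a higher-ranked one (y), with the curve for all genes and points for the 5 storage and 3 lipoprotein genes that have one. Mtp at rank 876 stands at 13.7%, Lsp1gamma at rank 1386 at 19.9%, and apolpp at rank 7140 at 52.5%.

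A candidate shared by the replicates, with summits within 100 bp of each other, lay in the window of 5 of 6 storage genes and 3 of 3 lipoprotein genes, against 63.4% of all genes. The exceptions among the 10 were Fbp1 and Tsf1.

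Tsf1, whose product carries iron through the hemolymph from gut to fat body, was the only member with no region at all. Its window of 13.3 kb on X held 0 candidates in replicate 1, 0 in replicate 3 and 0 in the pooled list. Of all protein-coding genes 10.5% had none in these 3 lists, and of those on X 8.56% had none. The 31-base words of the Tsf1 window occurred once in the reference in 100% of cases (rounded), and its G and C content was 49.1%, the highest of the 10 windows (34.7% at apolpp was the lowest).

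Other genes of lipid transport, iron handling and the fat body were looked up in 4 lists. Of 11 lipid carriers and receptors, 7 had an optimal summit in the gene or its flanks and 5 within 1000 bp of an own TSS, beside 53.3% and 25.2% of all genes. For all 4 lists these shares are not matched to gene length. The lipid carriers and receptors range from 651 bp (Npc2a) to 141634 bp (mgl), against a median of 2166 bp over all protein-coding genes. The lipophorin receptor genes LpR1 and LpR2 lie side by side and share 1 region at rank 77, in an intron of LpR2 2291 bp from an LpR2 TSS. LRP1, of the same receptor family, followed at rank 629, in its own intron. That summit was 21651 bp from the nearest LRP1 TSS and 9890 bp from the TSS of CG14756. LRP1 had 8 summits in all, and a lower-ranked one lay within 1000 bp of an LRP1 TSS. The genes cv-d and GLaz had no optimal summit. Of 10 iron-handling genes, 7 had a summit and 3 had one at a start site, beside the same 53.3% and 25.2%. Fer1HCH and Fer2LCH, the subunits of secreted ferritin, share a region at rank 134, 189 bp from the TSS of Fer2LCH and 287 bp from that of Fer1HCH. Tsf2, a transferrin relative of Tsf1, had one at rank 1971, which was 553 bp from the TSS of nst and 4106 bp from its own. Fer3HCH and Mco1 had none.

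Among 3 yolk-protein genes, Yp3 had a summit in its flanks (rank 2044, 341 bp from the TSS of rdgB), Yp1 and Yp2 had none, and 0 of 3 had one at a start site. Of 13 other genes of the fat body, 9 had a summit and 5 had one at a start site. Beside both lists, the shares over all genes were 53.3% and 25.2%. Desat1, a fatty acid desaturase gene, had 3 summits, the best at rank 37. That summit lay 113 bp from the TSS of CG18549 and 5142 bp from that of Desat1. A lower-ranked one lay within 1000 bp of a Desat1 TSS. Adh had 4, the best at rank 915 in an intron of osp and a lower-ranked one within 1000 bp of an Adh TSS. The lipid droplet gene Lsd-2 had its best at rank 1539 in its own intron. AkhR, the receptor of the lipid-mobilizing hormone, and Col4a1 had none.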

How the data were processed

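Per the labels, Hr39-GFP was precipitated from white prepupae in 2 biological replicates. The authors deposited dm6 lists of optimal regions (7444), of pooled candidates (28773) and of candidates per replicate (30000 each). Per the deposited notes on the libraries, candidates came from replicate alignments with 1 control alignment. Peak caller and aligner: not given in the sources used here. Deposited signal values, computed by the authors, are not scaled to depth. Apart from the signals printed above, they served only for ranks within a list. The optimal set is the top of the pooled list by signal. Lists on dm3 were not used.

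Summits were placed on Ensembl 115 genes of the major arms and chromosome 4. Summits within 100 bp counted as shared. Start and end matched RefSeq for all 10 genes, and sequences came from that RefSeq genome. Counting was checked on simulated regions. Python 3.11.15 was used with the packages numpy 2.4.6, pandas 2.3.3 and matplotlib 3.10.9.

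The genes, lists, motifs and alternatives were chosen with earlier results of these data known. All 10 genes are named; from each other list, up to 3 with the best rank and up to 2 without a summit, first by alphabet, are named. In the lists, 4 symbols were replaced by those of the annotation. Alternatives were other windows, TSS distances, stronger regions, single replicates and, chosen after seeing the data, regions with both replicates.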

Additional observations from a re-analysis of the deposited data

How the results depend on the processing

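By construction, smaller windows held fewer summits. In gene bodies alone, 2 of the 10 genes had an optimal summit, with 2 summits in all and 0 of 6 storage genes. With 2 kb to each side, 4 genes did, with 7 summits and 1 storage gene. In optimal regions with signal above the median of the set, 4 genes had one, with 6 summits, 3 storage genes and 1 lipoprotein gene, and 1 gene, Mtp, kept a summit at its own start site. With 10 kb to each side, with regions that overlap the window, with regions that have both replicates within 100 bp, and in the 7444 strongest regions of either replicate alone, counts of genes were 8, 5 storage and 3 lipoprotein, and counts of summits were 12 to 18. The 5 kb limit matters for 2 storage genes' summits, at 4971 and 4977 bp, of which the first is the only one of Lsp1gamma; just outside lay optimal summits at 5846 bp (Lsp1beta), 5976 bp (Mtp) and 6800 bp (Lsp2). The start-site count was 2 at 250 bp and 3 at 500 and 2000 bp, at the gene 5′ end alone and in either replicate. Genes with a candidate of both replicates numbered 8 at 50 bp, 9 at 250 bp and 8 in the shorter lists. No paired analysis was possible because the samples form 1 group. With peak lists alone, a region missing from a list cannot be told apart from one too weak to enter it.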
